A study of Mus musculus with 9 samples.

Results

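The 38 genes described here encode the proteins that place acetyl groups on lysines (writers), take them off (erasers) or bind them (readers). Noa1, known as a mitochondrial GTPase, is counted with the writers because the study listed it with the acetyltransferases. All 38 were listed by name, as 18 acetyltransferases and their partners, 18 deacetylases and 2 bromodomain proteins. They came from 24421 genes in a table of read counts. The rule itself uses no measured value, but the list was chosen with earlier results of these data known. The counts came from poly(A) RNA-seq of 4T1 cells, a triple-negative mammary carcinoma line derived from a BALB/c mouse. The cells were kept for 5 days under 3 conditions, with 3 libraries of each. In the first, cells formed 3D spheroids without added palmitate, in the second they formed 3D spheroids with 75 µM palmitate added, and in the third they grew as 2D monolayers with 75 µM palmitate added. All 3 conditions had medium with 10% serum, which itself carries fatty acids, and 2D culture without added palmitate was not analysed here. Both comparisons therefore share the 3D libraries with added palmitate, and nothing here bears on palmitate in 2D culture. The cells are 1 line, and the labels do not say whether the libraries of a condition came from separate cultures, so the p-values may measure technical spread only.

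Acetylation neutralizes the positive charge of lysine, loosens the contact of histones with DNA and makes a docking site for bromodomains. Acetyltransferases take the acetyl group from acetyl-CoA, which links the mark to the breakdown of fatty acids and glucose, and they also act on transcription factors such as the p65 subunit of NF-κB. Zinc-dependent deacetylases (HDACs) release the group as acetate, and sirtuins use NAD+ to remove it. The study asked how palmitate-derived acetyl-CoA is used by cells that grow in 3D, and compared the expression of acetyltransferases between cultures with and without added palmitate.

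Of the 38 genes, 30 matched a promoter window in the RefSeq table (GRCm38.p6), with 42 windows, and the other 8 (Elp3, Kat6a, Noa1, Ncoa2, Ncoa3, Hdac1, Hdac3 and Hdac10) had none in it. The windows of 4 genes are shown because they belong to related pairs whose members gave opposite or unequal values in the counts. Kat2a and Kat2b encode the alternative catalytic subunits of the SAGA and ATAC complexes, and Tada2a and Tada2b encode their Ada2 adaptors, of which TADA2A belongs to ATAC and TADA2B to SAGA. The pairs were chosen after the values were seen. Each line gives the stretch before the RefSeq start that lies outside the annotated gene, 5′ to 3′ on the strand of the gene, and capitals mark the letters of the motifs named below.
Kat2a, chr11:100712468-100712717, minus strand: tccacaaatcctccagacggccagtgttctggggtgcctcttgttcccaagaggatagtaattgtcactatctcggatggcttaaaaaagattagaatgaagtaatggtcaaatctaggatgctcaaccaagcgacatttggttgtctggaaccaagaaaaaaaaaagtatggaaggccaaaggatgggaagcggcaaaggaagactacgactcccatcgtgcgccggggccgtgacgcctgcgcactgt
Kat2b, chr17:53566721-53566860, plus strand: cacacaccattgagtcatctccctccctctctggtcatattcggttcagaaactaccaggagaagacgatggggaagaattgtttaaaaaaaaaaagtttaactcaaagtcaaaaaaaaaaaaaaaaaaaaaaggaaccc
Tada2a, chr11:84129601-84129818, minus strand: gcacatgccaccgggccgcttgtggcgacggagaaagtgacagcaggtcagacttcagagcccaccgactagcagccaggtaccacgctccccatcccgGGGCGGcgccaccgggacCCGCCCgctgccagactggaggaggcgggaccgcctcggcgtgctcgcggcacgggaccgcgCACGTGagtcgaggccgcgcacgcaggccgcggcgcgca
Tada2b, chr5:36484286-36484535, minus strand: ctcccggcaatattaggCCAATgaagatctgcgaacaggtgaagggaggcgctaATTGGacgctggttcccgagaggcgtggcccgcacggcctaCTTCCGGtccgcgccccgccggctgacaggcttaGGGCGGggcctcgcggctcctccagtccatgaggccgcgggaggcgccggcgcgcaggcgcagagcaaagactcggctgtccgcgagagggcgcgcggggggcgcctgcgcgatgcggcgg

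In both strands of the 250 bases before each start, the letters GGGCGG (GC box) were found in 59.5% of the 42 windows and in 32.7% of all 32851 windows of the table. The windows of the acetylation genes also had a higher median GC content, at 61.6% against 52.4%, and a median of 17 CpG pairs against 6. CCAAT was found in 35.7% against 33.8%, CCGGAAG (ETS) in 14.3% against 6.91% and CACGTG (E-box) in 9.52% against 6.02%. TGACGTCA (CRE) was in 0 of the 42 windows, against 1.55% of all windows. The windows of the table were not limited to genes expressed in these cells, while 37 of the 38 acetylation genes had enough counts to be tested. No set matched for expression was compared. Some genes have several windows, and those of Kat6b largely overlap each other. In the stretches shown, Kat2a and Kat2b held no match, Tada2a held 2 GC boxes and 1 E-box, and Tada2b held 1 GC box, 2 CCAAT boxes and 1 ETS match. The Kat2a and Kat2b stretches had 11 and 2 CpG pairs, those of Tada2a and Tada2b 30 and 34. These stretches differ in length, since those of Kat2b and Tada2a were cut to 140 and 218 bases at the annotated gene. The full window of 250 bases held 1 CCAAT box and 6 CpG pairs for Kat2b, and 36 CpG pairs for Tada2a. Another Kat2b window, not shown, held no match.

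Library totals ranged from 6595514 counts, in replicate 3 of 3D with added palmitate, to 31177756, and 12575 genes had enough counts to be tested. Levels are given in CPM, that is, counts divided by the library's total and set to a common scale, after edgeR's TMM scaling. Genes with a Benjamini-Hochberg adjusted p under 0.05 in edgeR's quasi-likelihood test, fitted to all 9 libraries and adjusted over all genes tested, are said to differ. The epithelial markers Krt8, Krt18, Krt19, Epcam and Cdh1 were all expressed, and their summed level was 3080 to 3295 CPM in 2D, 4396 to 4530 in 3D with added palmitate and 4463 to 4486 in 3D without it. None of the 5 leukocyte or 5 endothelial markers passed the filter, with summed levels of at most 0.976 and 0.579 CPM and with Cd3e, Adgre1 and Emcn at 0 counts. Of 5 fibroblast markers 3 passed and Lum was at 0, with sums of 33.2 to 34.6 CPM in 2D, 93.4 to 111 in 3D with added palmitate and 91.6 to 106 in 3D without it. Most of that sum was Pdgfra. The part of the epithelial and fibroblast markers in the results on 3D culture was not tested.

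Of the 38 genes, 37 were tested. Hdac9, a class IIa deacetylase known from muscle and brain, had at most 4 counts in a library and was not. The raw counts of the 37 ranged from 25 to 13660 per library. Divided by the combined exon length of each gene in kb, the highest levels in 2D culture were those of Hdac2 (59.1 CPM per kb) and of Brd2 (58.9), whose libraries overlapped. Kat2a followed at 47.1 and Hat1 at 43.7. In 3D with added palmitate Brd2 was at 57.3 CPM per kb, Hdac2 at 41.0, Hat1 at 34.0 and Kat2a at 31.5. The libraries of Kat2a lay above those of Hat1 per kb in 2D and overlapped them in 3D. At the low end in 2D were Hdac4 at 0.852, Sirt3 at 0.958 and Kat6b at 1.49 CPM per kb. The plot of relative levels in every library shows 2 blocks, the 2D libraries against both kinds of 3D libraries, and little contrast between 3D with and without added palmitate.

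**Figure D1:**
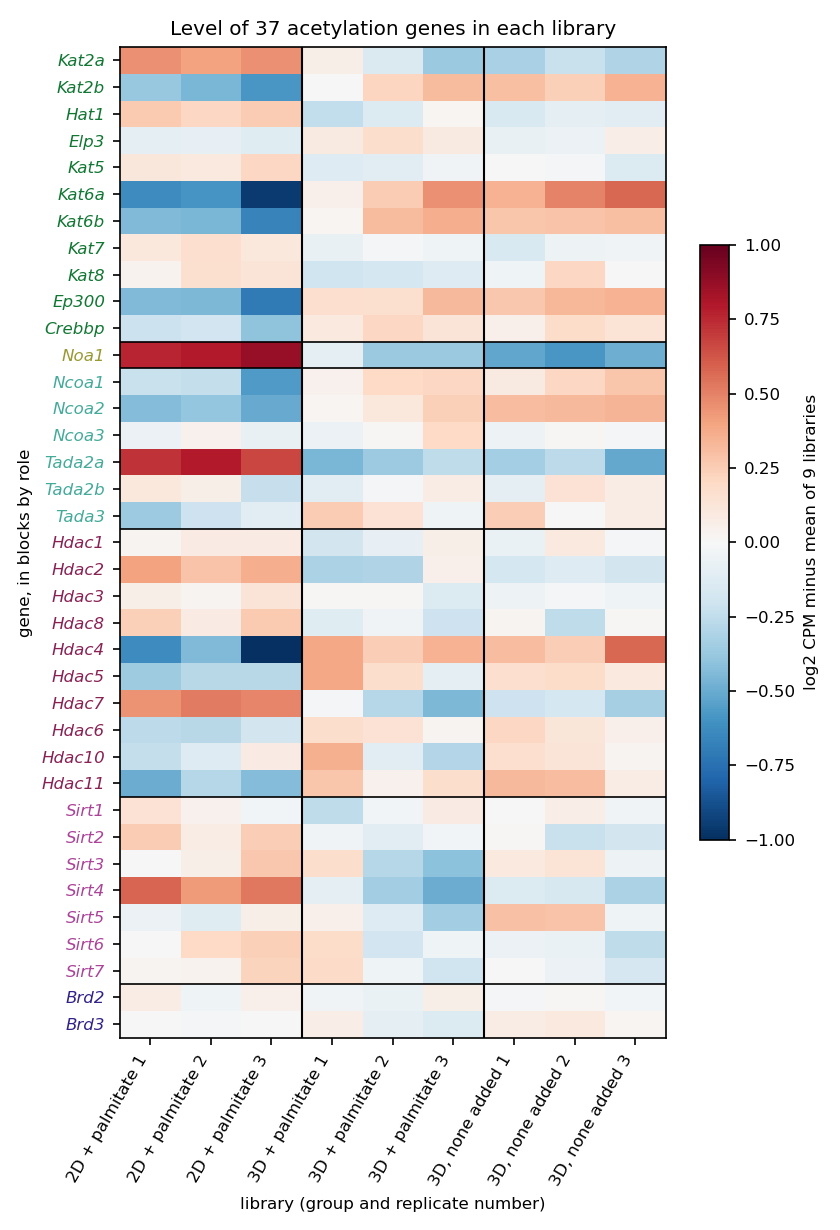
Log2 CPM of the 37 tested genes (vertical axis, in blocks by role) in each of the 9 libraries (horizontal axis), shown as the difference from the mean of the 9 libraries of that gene (colour, limited to 1 in either direction). Kat6a and Hdac4 were lowest and Noa1 and Tada2a highest in the 3 2D libraries, while Brd2 and Brd3 varied little.

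Between 3D and 2D culture, both with added palmitate, most writers differed, and they did so in both directions. Ep300, Kat6a, Kat6b and Kat2b were higher in 3D, and Kat2a, Tada2a and Noa1 lower. Of the 37 genes 25 differed, which is 67.6% against 68.3% of all genes tested. Of these, 13 were higher in 3D and 12 were lower, while 34.5% of all genes were higher and 33.9% lower. The groups did not overlap for 26 of the 37, or 70.3%, against 69.4% of all genes. The median log2 fold change was -0.042, against 0.0083 over all genes, and the median size of the change was 0.36 against 0.43. By side, 16 of 18 writers differed (9 higher, 7 lower), 9 of 17 tested erasers differed (4 higher, 5 lower) and 0 of 2 readers did. Whether these shares differ from each other was not tested. The writers include Noa1, which the study listed with the acetyltransferases but which is known as a mitochondrial GTPase. In bulk RNA, a lower level in some of the cells and less RNA in every cell cannot be told apart.

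**Figure D2:**
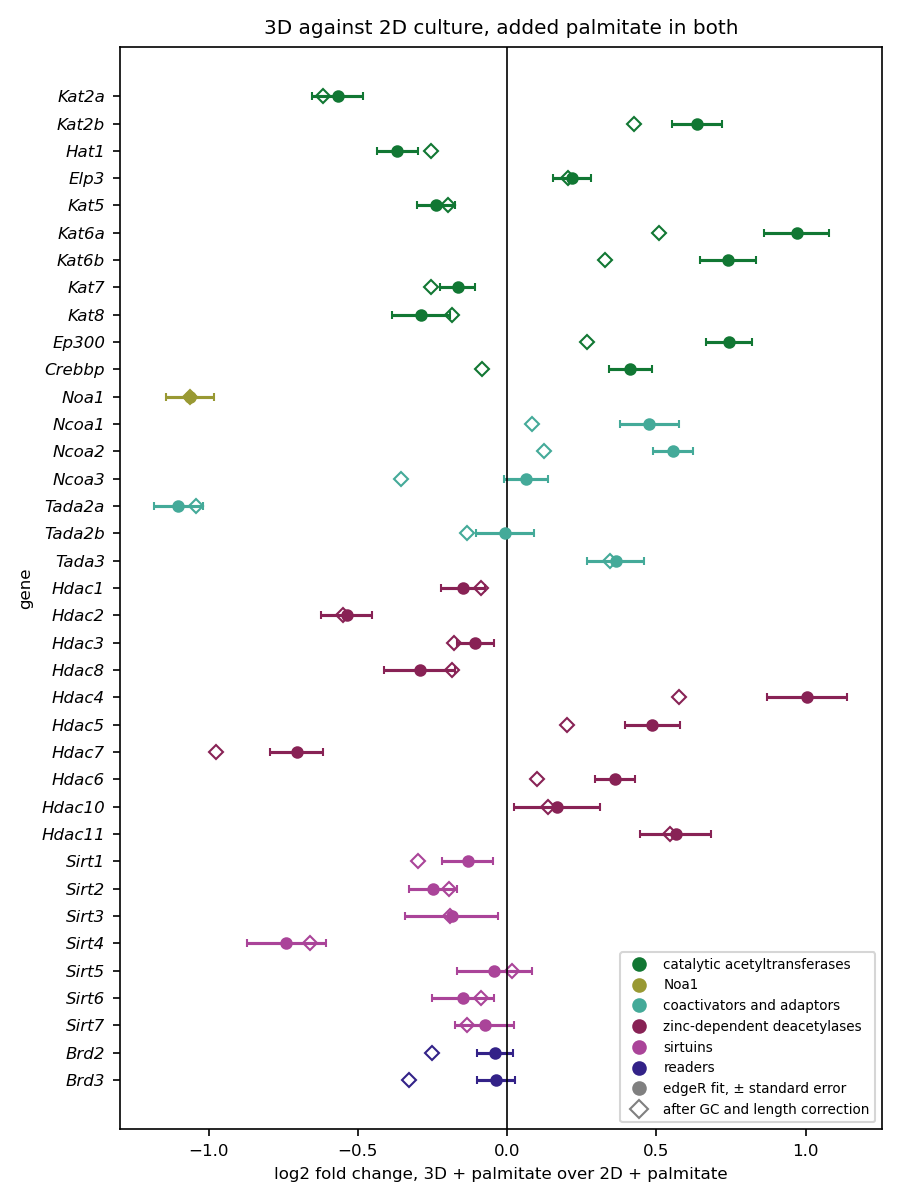
Log2 fold change of 3D over 2D culture, both with added palmitate (horizontal axis), for the 37 tested genes (vertical axis). Filled circles with bars give the edgeR estimate ± standard error, and open diamonds the estimate after GC and length correction, which lies lower for the long genes such as Kat6a, Ep300 and Crebbp.

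All 11 catalytic acetyltransferases differed between 3D and 2D, 6 higher and 5 lower, against 68.3% of all genes tested. Ep300 (chr15:81585351-81652077 in GRCm38) encodes p300, a coactivator recruited by many transcription factors. It was at 111, 110.1 and 92.1 CPM in the 2D libraries, 169, 168 and 188 CPM in the 3D libraries with added palmitate and 181, 189.8 and 191 CPM in the 3D libraries without it. Both 3D groups lay above all 2D libraries (log2 fold change 0.74, standard error 0.0777, edgeR adjusted p = 9.11e-07), and the call held, at 0.27, after correction of each library for its dependence on GC content and transcript length (GC and length correction). Its relative Crebbp, which encodes CBP, rose less, from 62.5 ± 4.95 (SD, n = 3) to 83.2 ± 3.27 CPM (SD, n = 3) and with a log2 fold change of 0.41. That call was lost, and the sign turned, after GC and length correction, at -0.083.

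Among the MYST acetyltransferases, which share a zinc-finger catalytic domain, Kat6a and Kat6b were higher and Kat5, Kat7 and Kat8 lower in 3D. Kat6a (chr8:22859535-22943259), whose product MOZ acetylates histone H3 and is fused to other genes in leukaemia, was at 117, 120.0 and 93.1 CPM in the 2D libraries, 187, 215 and 247 CPM in the 3D libraries with added palmitate and 229.6, 254 and 268 CPM in the 3D libraries without it. No 2D library reached any 3D library (log2 fold change 0.97, standard error 0.109, edgeR adjusted p = 1.89e-06), and the difference was 0.51 after GC and length correction. Kat6b, its paralog, rose from 25.0 ± 2.09 CPM in 2D to 42.4 ± 5.37 CPM in 3D (SD, n = 3 each), without overlap (log2 fold change 0.74, standard error 0.0949, edgeR adjusted p = 7.27e-06), and was also smaller, at 0.33, after that correction. Kat5, which encodes TIP60 of the NuA4 complex, fell from 78.7 ± 3.10 to 67.0 ± 2.27 CPM (SD, n = 3 each), without overlap (log2 fold change -0.24, standard error 0.0647, edgeR adjusted p = 0.00442). Kat7 (HBO1, linked to replication origins) and Kat8 (MOF, which acetylates histone H4) also fell, with log2 fold changes of -0.17 and -0.29. Both passed, with edgeR adjusted p-values of 0.0230 and 0.0157, and both failed without replicate 1 of 3D with added palmitate (0.0529 and 0.0516) and without replicate 2 of 2D (0.0773 and 0.0560). Neither passed with DESeq2 on the 2 groups compared (adjusted p = 0.0704 and 0.0666), and Kat8 did not pass after GC and length correction (edgeR adjusted p = 0.111).

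The GNAT acetyltransferases, named after the yeast enzyme Gcn5, divided evenly. Kat2a (chr11:100704746-100712465), which encodes GCN5, was at 166, 159.98 and 166 CPM in the 2D libraries, 126, 109 and 93.6 CPM in the 3D libraries with added palmitate and 96.9, 104 and 98.5 CPM in the 3D libraries without it. Every 3D library lay below every 2D library (log2 fold change -0.57, standard error 0.0852, edgeR adjusted p = 3.39e-05), and the values of the 3D libraries with added palmitate spread more than those of the other groups. Kat2b (chr17:53566861-53672720), which encodes PCAF, was at 44.3, 42.0 and 38.5 CPM in the 2D libraries, 57.3, 66.8 and 71.5 CPM in the 3D libraries with added palmitate and 70.8, 67.8 and 73.3 CPM in the 3D libraries without it. It moved the other way, with each 3D library above each 2D library (log2 fold change 0.64, standard error 0.0849, edgeR adjusted p = 1.09e-05). Hat1, which acetylates newly made histone H4 before it is built into chromatin, fell from 126 ± 2.86 to 98.2 ± 9.07 CPM (SD, n = 3 each; log2 fold change -0.37, standard error 0.0688, edgeR adjusted p = 0.00025042). Elp3, the catalytic subunit of the Elongator complex that modifies tRNA, rose slightly, from 72.0 ± 1.11 to 83.6 ± 2.87 CPM (SD, n = 3 each; log2 fold change 0.22, standard error 0.0629, edgeR adjusted p = 0.00683).

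Noa1 (chr5:77294182-77310084) is listed among the acetyltransferases by the study, and is known as a mitochondrial GTPase needed for the assembly of mitochondrial ribosomes. Its libraries had 70.4, 71.8 and 75.7 CPM in the 2D libraries, 38.8, 32.0 and 32.0 CPM in the 3D libraries with added palmitate and 28.9, 27.7 and 29.5 CPM in the 3D libraries without it. Levels in 3D were below those in 2D without overlap (log2 fold change -1.06, standard error 0.0800, edgeR adjusted p = 2.97e-08), and the size of the change was the same after GC and length correction (-1.06).

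Of the 6 coactivators and adaptors, 3 were higher, 1 was lower and 2 did not pass, so 66.7% differed against 68.3% of all genes tested. The p160 coactivators bind nuclear receptors and bring p300 and CBP to them. Ncoa2 rose from 59.6 ± 2.48 to 88.3 ± 6.73 CPM (SD, n = 3 each; log2 fold change 0.56, standard error 0.0678, edgeR adjusted p = 4.39e-06), and Ncoa1 rose from 26.6 ± 3.46 to 37.2 ± 2.31 CPM (SD, n = 3 each; log2 fold change 0.48, standard error 0.0974, edgeR adjusted p = 0.000531). Ncoa3, which is amplified in some breast cancers, was at 42.3 ± 1.83 and 44.8 ± 4.26 CPM (SD, n = 3 each) with overlapping libraries and a log2 fold change of 0.063, which turned to -0.36 and passed after GC and length correction. In that fit the call on Ncoa1 was lost, at 0.084, and Ncoa2 passed at 0.12.

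The 3 Ada adaptors hold the Kat2 enzymes in their complexes, and each gave a different result. Tada2a (chr11:84078920-84129600), whose promoter stretch is shown above, was at 61.8, 64.7 and 59.3 CPM in the 2D libraries, 27.3, 29.1 and 31.4 CPM in the 3D libraries with added palmitate and 29.6, 31.2 and 26.3 CPM in the 3D libraries without it. The 2D values were higher than all 3D values by more than the whole range of either 3D group (log2 fold change -1.10, standard error 0.0809, edgeR adjusted p = 2.31e-08). Tada2b (chr5:36473670-36484285) was at 40.5, 39.1 and 32.1 CPM in the 2D libraries, 34.9, 37.3 and 39.7 CPM in the 3D libraries with added palmitate and 35.2, 41.7 and 39.7 CPM in the 3D libraries without it. All 3 groups overlapped, and its log2 fold change was -0.0076, with a sign that changed in other fits. Tada3, shared by SAGA and ATAC, rose from 26.4 ± 2.28 to 33.7 ± 3.44 CPM (SD, n = 3 each; log2 fold change 0.36, standard error 0.0948, edgeR adjusted p = 0.00336).

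**Figure D3:**
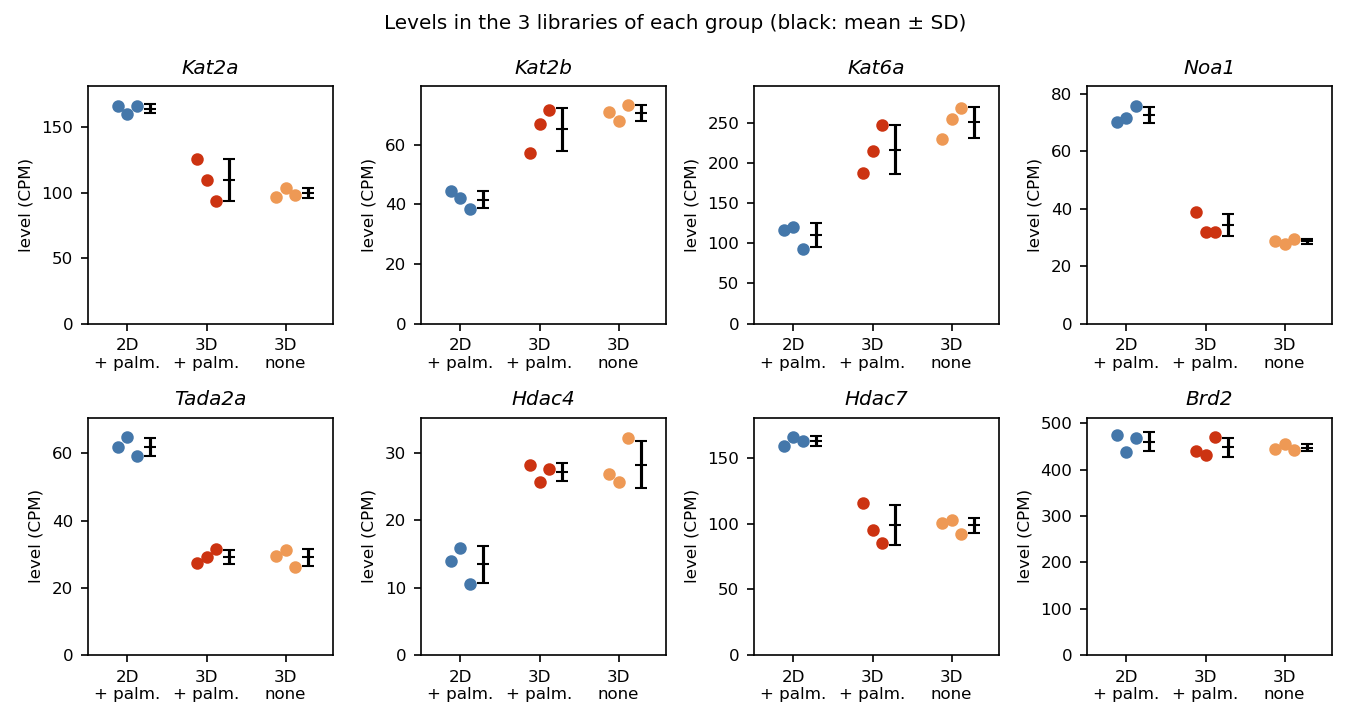
Level in CPM (vertical axis, from 0) of 8 genes in the 3 libraries of each group (coloured points), with mean ± SD in black. The 2D and 3D libraries of Kat2a, Kat2b, Kat6a, Noa1, Tada2a, Hdac4 and Hdac7 did not overlap, those of Brd2 did, and the 2 kinds of 3D libraries overlapped in all but Noa1.

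Among the zinc-dependent deacetylases 7 of 10 tested differed, 4 higher and 3 lower, or 70% against 68.3% of all genes tested. Class I enzymes, of which HDAC1, HDAC2 and HDAC3 are nuclear subunits of corepressor complexes, all had negative log2 fold changes, and 2 of 4 passed. Hdac2 was at 274, 252 and 267 CPM in the 2D libraries, 166, 169 and 215 CPM in the 3D libraries with added palmitate and 183, 190.0 and 183 CPM in the 3D libraries without it. The 2D libraries lay above both 3D groups, and replicate 3 of 3D with added palmitate lay above the rest of the 3D libraries (log2 fold change -0.54, standard error 0.0856, edgeR adjusted p = 6.04e-05). Hdac8, which deacetylates cohesin, fell from 8.91 ± 0.589 to 7.17 ± 0.429 CPM (SD, n = 3 each; log2 fold change -0.29, standard error 0.118, edgeR adjusted p = 0.0400), and its call was lost without any 1 of the 3 libraries of 3D with added palmitate and without replicate 1 or 3 of 2D (edgeR adjusted p from 0.0551 to 0.117). Hdac8 also did not pass with DESeq2 on all 9 libraries or on the 2 groups compared (adjusted p = 0.0848 and 0.131) or after GC and length correction (edgeR adjusted p = 0.149). Hdac1 (-0.15) and Hdac3 (-0.11, the catalytic subunit of the NCoR and SMRT corepressors) did not pass, and Hdac1 passed without replicate 3 of 3D with added palmitate (-0.21).

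Class IIa deacetylases shuttle between nucleus and cytoplasm and act mainly by binding MEF2 factors. Of the 3 tested, Hdac4 and Hdac5 were higher and Hdac7 lower in 3D. Hdac4 (chr1:91928779-92195699) was at 14.0, 15.9 and 10.5 CPM in the 2D libraries, 28.3, 25.6 and 27.6 CPM in the 3D libraries with added palmitate and 26.8, 25.7 and 32.2 CPM in the 3D libraries without it. Every 3D library lay well above every 2D library (log2 fold change 1.01, standard error 0.134, edgeR adjusted p = 1.05e-05), and the difference was 0.58 after GC and length correction. Exons of a lincRNA, Gm26720, overlap those of Hdac4 on the other strand over 3536 bases. Hdac5 rose from 72.7 ± 2.27 to 101 ± 16.7 CPM (SD, n = 3 each; log2 fold change 0.49, standard error 0.0927, edgeR adjusted p = 0.000291), and stood at 0.20 after the correction. Hdac7 (chr15:97792664-97844502), known from blood vessels and thymocytes, was at 159, 166 and 163 CPM in the 2D libraries, 116, 95.6 and 85.5 CPM in the 3D libraries with added palmitate and 101, 103 and 92.6 CPM in the 3D libraries without it. It moved opposite to both relatives, with every 3D library below every 2D library (log2 fold change -0.71, standard error 0.0897, edgeR adjusted p = 6.81e-06).

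Hdac6, a cytoplasmic class IIb enzyme that deacetylates tubulin, rose from 54.5 ± 1.82 to 69.7 ± 3.57 CPM (SD, n = 3 each; log2 fold change 0.36, standard error 0.0673, edgeR adjusted p = 0.000236), but did not pass after GC and length correction (0.10). Hdac10, a polyamine deacetylase, was at 9.71 ± 1.10 and 10.4 ± 2.50 CPM (SD, n = 3 each) with overlap. Hdac11, the only class IV enzyme, was higher, at 10.2 ± 0.832 against 6.88 ± 0.523 CPM (SD, n = 3 each), with a log2 fold change of 0.56 and an edgeR adjusted p of 0.000673.

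All 7 sirtuins had negative log2 fold changes between -0.74 and -0.042, but only 2 passed, or 28.6% against 68.3% of all genes. Sirt5 turned to 0.017 after GC and length correction. Sirt4, a mitochondrial sirtuin that restrains glutamine and fatty acid use, was at 8.11, 7.24 and 7.80 CPM in the 2D libraries, 5.08, 4.25 and 3.83 CPM in the 3D libraries with added palmitate and 4.91, 4.85 and 4.34 CPM in the 3D libraries without it. Its 2D libraries lay above all 3D libraries (log2 fold change -0.74, standard error 0.132, edgeR adjusted p = 0.000173). Sirt2, a mostly cytoplasmic enzyme, fell from 49.2 ± 3.37 to 41.3 ± 1.38 CPM (SD, n = 3 each; log2 fold change -0.25, standard error 0.0797, edgeR adjusted p = 0.0125), and did not pass without replicate 2 of 3D with added palmitate (edgeR adjusted p = 0.0560). The nuclear Sirt1, Sirt6 and Sirt7 and the mitochondrial Sirt3 and Sirt5 had overlapping libraries. Their log2 fold changes were -0.13, -0.15, -0.074, -0.19 and -0.042. Sirt3 and Sirt6 passed without replicate 1 of 3D with added palmitate (-0.45 and -0.29), and Sirt1 without replicate 3 of that group (-0.20), so whether each of the 3 passed depended on 1 library.

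The readers Brd2 and Brd3 are BET proteins, which carry a pair of bromodomains and tie acetylated histones to transcription elongation. Brd2 was at 476, 438 and 469 CPM in the 2D libraries, 441, 432 and 472 CPM in the 3D libraries with added palmitate and 445, 455 and 442 CPM in the 3D libraries without it, and Brd3 at 113, 112 and 114 CPM in the 2D libraries, 118, 106 and 103 CPM in the 3D libraries with added palmitate and 119.5, 121 and 115 CPM in the 3D libraries without it. Both ranges overlapped between 3D and 2D, neither gene had an unadjusted p under 0.05 in edgeR, and neither passed with DESeq2. The log2 fold changes were -0.040 (standard error 0.0596, 95% interval -0.17 to 0.088, edgeR adjusted p = 0.569) and -0.038 (standard error 0.0644, 95% interval -0.18 to 0.10, edgeR adjusted p = 0.620). After GC and length correction both passed as lower in 3D, at -0.25 and -0.33.

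Ratios within chosen pairs of related genes also differed between 3D and 2D, except for Brd2 and Brd3. Per kb of exon, Kat2a exceeded Kat2b by a ratio of 5.23, 5.33 and 6.04 in the 2D libraries, 3.07, 2.29 and 1.83 in 3D with added palmitate and 1.91, 2.14 and 1.88 in 3D without it. The 2D ratios stood apart from both 3D groups, which overlapped each other. Tada2a over Tada2b was 2.14 ± 0.207 in 2D and 1.00 ± 0.00791 in 3D with added palmitate (SD, n = 3 each), so the adaptors of the 2 complexes had about equal levels per kb in 3D. Hdac7 over Hdac5 was 2.91 ± 0.0468 in 2D against 1.28 ± 0.0466 in 3D with added palmitate (SD, n = 3 each), and Hdac2 over Hdac1 was 3.85 ± 0.233 against 2.91 ± 0.216. Ep300 over Crebbp went up instead, from 1.58 ± 0.0429 to 2.00 ± 0.164. Brd2 over Brd3 stayed within the spread, at 3.83 ± 0.141 and 3.86 ± 0.397. Of the 9 pairs computed, Brd2 and Brd3 was the only 1 whose 3D and 2D libraries with added palmitate overlapped. All 9 overlapped between 3D with and without it. The pairs were picked by hand with earlier results of these data known, and no share over gene pairs in general was computed. Kat2a and Kat2b, and likewise Hdac7 and Hdac5, moved in opposite directions without overlap as single genes. Their ratios were therefore bound to stand apart. Of all single genes tested, 69.4% did not overlap between 3D and 2D. With 3 libraries against 3, a two-sided exact permutation test cannot go below p = 0.1, so these ratios are given as descriptions.

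**Figure D4:**
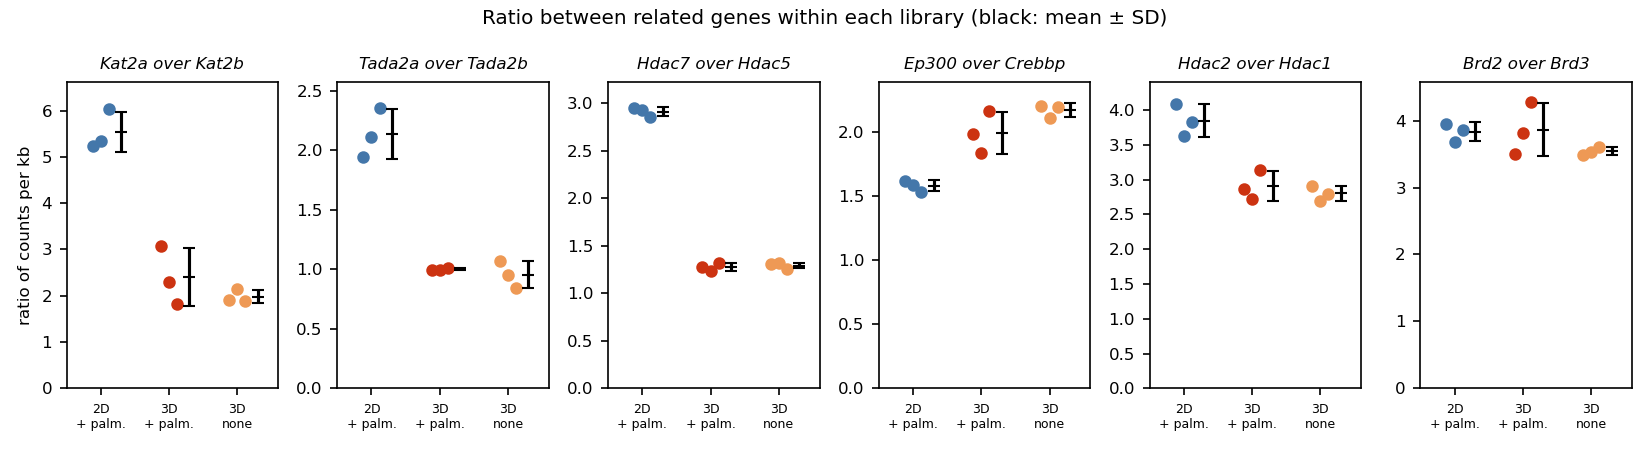
Ratio of the level per kb of exon of 6 pairs of related genes (vertical axis, from 0) in the 3 libraries of each group (coloured points), with mean ± SD in black. The ratio of Kat2a to Kat2b lay between 5.23 and 6.04 in 2D and between 1.83 and 3.07 in 3D with added palmitate, and Brd2 over Brd3 overlapped across the groups.

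Summed per kb over all genes of a side, the writers had 269.7 ± 3.73 CPM per kb in 2D, 250.04 ± 5.96 in 3D with added palmitate and 250.5 ± 5.82 in 3D without it (SD, n = 3 each). The erasers had 190.1 ± 3.80, 161 ± 4.23 and 163 ± 4.53 CPM per kb, and the readers 74.2 ± 2.72, 72.2 ± 2.35 and 73.4 ± 1.26 (SD, n = 3 each). Both writers and erasers were lower in every 3D library than in every 2D library, and the readers overlapped. Without Noa1, the sums of the writers overlapped between 2D and 3D. Within the writers, the sum of the 11 catalytic acetyltransferases also overlapped. That sum was 204.3, 202.2 and 199.4 CPM per kb in 2D and 191.9, 198.5 and 202.2 in 3D with added palmitate. Between these groups the mean of Noa1 fell from 18.02 to 8.503 CPM per kb, and that of Tada2a from 20.8 to 9.84. The sum of the 6 coactivators and adaptors, which include Tada2a, was lower in every 3D library than in every 2D library. The ratio of summed writers to summed erasers was 1.43, 1.46 and 1.37 in the 2D libraries, 1.48, 1.60 and 1.57 in 3D with added palmitate and 1.48, 1.53 and 1.61 in 3D without it. The 2D values were below all 3D values, by a small margin with Noa1 counted among the writers, and also without Noa1. These sums are led by a few abundant genes: Kat2a held 23.3% of the catalytic acetyltransferase sum in 2D and 16.0% in 3D with added palmitate, and Hdac2 held 39.3% and 32.3% of the zinc-dependent deacetylase sum. Kat6a went from 5.93% to 11.9% of the catalytic sum.

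Transcript length moved with the direction of change. The 13 genes higher in 3D had a median exon length of 8780 bp, the 12 lower ones 3769 bp and the 12 that did not pass 5240 bp, with median GC contents of 51.1%, 51.6% and 50.8%. All 8 tested genes with over 8000 bp of exon (Kat6a, Kat6b, Ep300, Crebbp, Ncoa1, Ncoa2, Hdac4 and Hdac5) were higher in 3D. The share over all genes of that length was not computed, so this count is not a result about acetylation genes. After GC and length correction, 6 of the 8 passed as higher. The correction lowered their log2 fold changes by 0.29 to 0.50. It left 25 of the 37 genes past the threshold, now 10 higher and 15 lower, against 71.6% of all genes tested, of which 3822 were higher and 5187 lower instead of 4335 and 4259. Crebbp, Ncoa1, Hdac6, Hdac8 and Kat8 no longer passed, and Ncoa3, Hdac3, Sirt1, Brd2 and Brd3 passed as lower. The other 20 genes passed in the same direction in both fits, among them Kat6a, Ep300, Kat2b, Hdac4, Kat2a, Tada2a, Noa1 and Hdac7. The part of transcript length in the results was not tested further.

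Of 128 other genes of acetylation complexes in 5 lists, 126 were tested and 91 differed between 3D and 2D, or 72.2% against 68.3% of all genes. By list the shares were 56.25% of the other readers, 77.3% of the SAGA and ATAC subunits and 69.0% of the MYST complex subunits. They were 77.8% of the HDAC corepressor subunits and 81.8% of the Elongator subunits and other acetyltransferases. Among 32 other acetyl-lysine readers 11 were higher and 7 lower, led by Brpf3, a scaffold of MYST complexes (1.06 on the log2 scale), and Mllt3, a YEATS reader (1.07), against Dpf1, a neuronal subunit of chromatin remodellers (-2.00), and Brd8, a NuA4 subunit (-0.57). After GC and length correction the list gave 4 higher and 21 lower. Over all genes tested that correction gave 3822 higher and 5187 lower, against 4335 and 4259 before it. Whether the lists depart from the split over all genes was not tested. Among 22 SAGA and ATAC subunits 9 were higher, including the deubiquitinase Usp22 (0.64) and Atxn7 (0.65), and 8 lower, including Taf9 (-0.88) and Wdr5 (-0.64), and the correction gave 6 and 11. The 29 subunits of MYST complexes gave 10 in each direction, with Kansl1 at 0.61 and the ATPases Ruvbl2 and Ruvbl1 at -1.20 and -0.72, and the correction gave 7 higher and 18 lower.

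Among 36 subunits of HDAC corepressor complexes, 11 were higher and 17 lower, against 34.5% and 33.9% of all genes tested. Gatad2b of the NuRD complex was at 0.78 and Tbl1xr1 of the NCoR complex at 0.48, while Rcor2, a CoREST subunit, was at -1.67 and Sap30 of the Sin3 complex at -1.08. After GC and length correction the list gave 6 higher and 24 lower, where all genes tested gave 3822 and 5187. Tbl1xr1 did not pass in that fit (0.084). Of 11 Elongator subunits and other acetyltransferases, Esco2, which acetylates cohesin, and Clock were higher (0.95 and 0.76) among 4, and Ikbkap, the scaffold of Elongator, and Nat10, an RNA acetyltransferase, were lower (-0.40 and -0.34) among 5. The lists share members, such as Brpf3.

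Added palmitate in 3D culture changed none of these genes past the threshold. In edgeR's test 0 of the 37 genes differed, against 2.19% of all genes tested, and 4 had an unadjusted p under 0.05, or 10.8%, against 17.3% of all genes. DESeq2 on all 9 libraries and on the 2 groups compared also gave 0. Log2 fold changes lay between -0.27 (Sirt5) and 0.28 (Noa1), with a median of -0.025 against 0.0077 over all genes, and the median size was 0.059 against 0.10. The 95% intervals reached from -0.54 (Sirt5) to 0.46 (Noa1). The 4 genes with an unadjusted p under 0.05 were also the 4 whose groups did not overlap, or 10.8% against 18.6% of all genes.

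**Figure D5:**
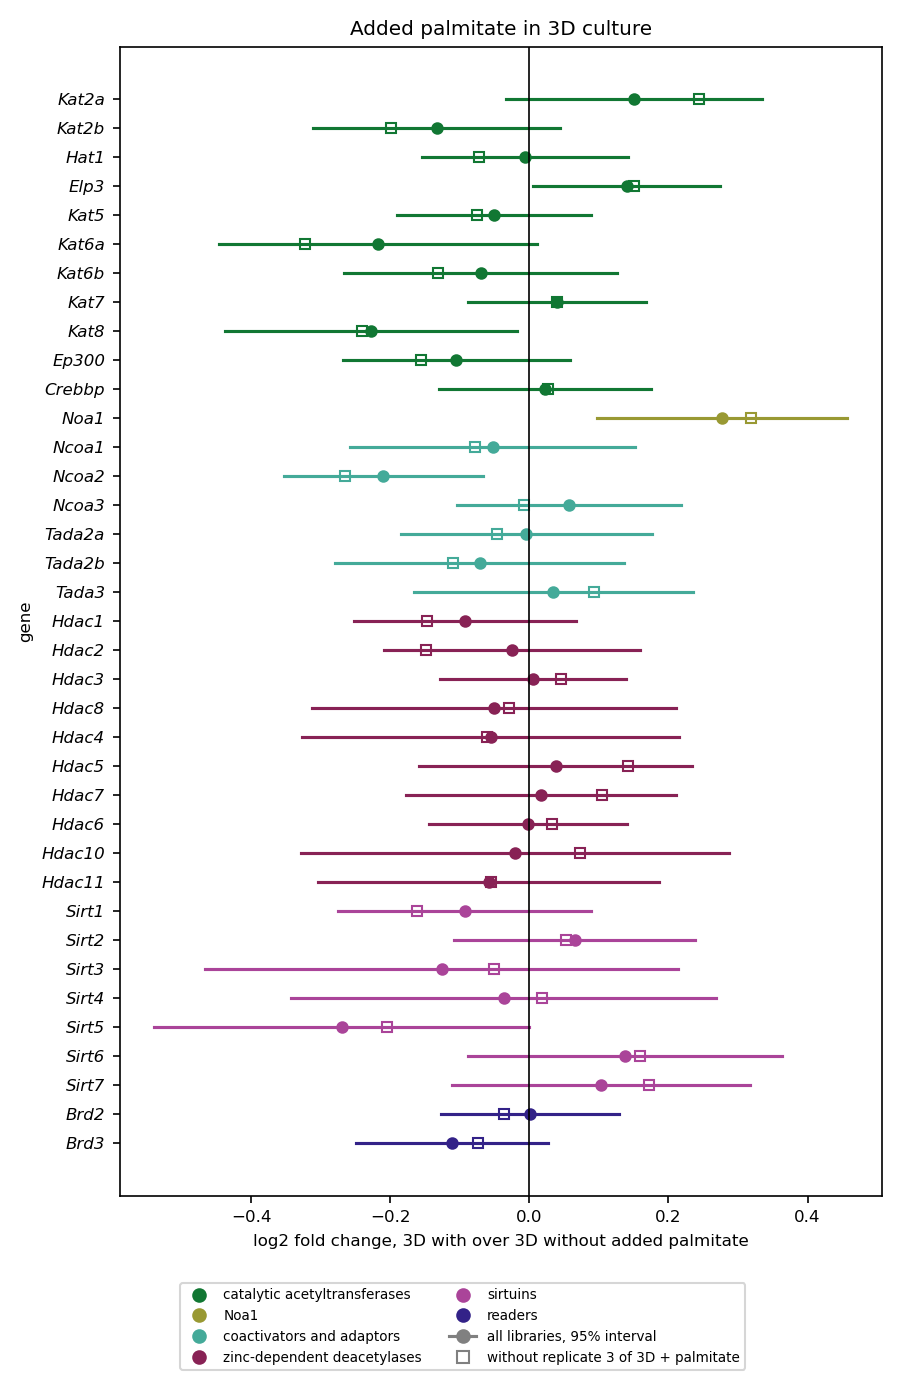
Log2 fold change of 3D with over 3D without added palmitate (horizontal axis) for the 37 tested genes (vertical axis), as edgeR estimates with 95% intervals (filled circles and lines) and as estimates without replicate 3 of 3D with added palmitate (open squares). The estimates lay between -0.27 and 0.28, and leaving out the library moved Kat2a from 0.15 to 0.24 and Kat6a from -0.22 to -0.32.

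Noa1 had the largest value. Its 3D libraries had 38.8, 32.0 and 32.0 CPM with added palmitate and 28.9, 27.7 and 29.5 CPM without it, so the groups were separate by a small gap (log2 fold change 0.28, standard error 0.0839, 95% interval 0.098 to 0.46, edgeR unadjusted p = 0.00506 and adjusted p = 0.105). Elp3 had 82.1, 86.9 and 81.8 against 73.2, 73.8 and 80.8 CPM, with the groups barely apart (log2 fold change 0.14, standard error 0.0629, 95% interval 0.0052 to 0.27, edgeR unadjusted p = 0.0429 and adjusted p = 0.271). Kat8 was at 12.3, 12.5 and 12.9 against 13.7, 16.2 and 14.0 CPM, all lower with palmitate (log2 fold change -0.23, standard error 0.0980, 95% interval -0.44 to -0.018, edgeR unadjusted p = 0.0354 and adjusted p = 0.248). Ncoa2, named here after its values were seen, had 82.3, 87.1 and 95.6 against 101, 101 and 103 CPM, lower in each library with palmitate (log2 fold change -0.21, standard error 0.0666, 95% interval -0.35 to -0.067, edgeR unadjusted p = 0.00695 and adjusted p = 0.119).

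Kat2a had 126, 109 and 93.6 CPM with added palmitate and 96.9, 104 and 98.5 CPM without it. Of the libraries with palmitate 2 lay above all those without, and replicate 3 lay below all of them, so the groups overlapped (log2 fold change 0.15, standard error 0.0860, 95% interval -0.033 to 0.33, edgeR unadjusted p = 0.101 and adjusted p = 0.393). Without replicate 3, which had the lowest total of all libraries, the log2 fold change of Kat2a was 0.24 with an edgeR adjusted p of 0.0202, and without replicate 1 of the same group it was 0.034 (0.897). In the fit without replicate 3, Noa1 was also higher (0.32), Ncoa2 (-0.26) and Kat6a (-0.32) were lower, and 14.9% of all genes tested differed. Kat6a was at 187, 215 and 247 CPM with and 229.6, 254 and 268 CPM without added palmitate, with 1 library with palmitate above the lowest of those without. After GC and length correction, 2 of the 37 genes passed, Noa1 (0.24) and Ncoa2 (-0.17), against 7.42% of all genes.

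No deacetylase, sirtuin or reader had an unadjusted p under 0.05 with palmitate. The largest value among the zinc-dependent deacetylases was -0.092 (Hdac1, 95% interval -0.25 to 0.067), and among the readers -0.11 (Brd3, -0.25 to 0.027). Of the sirtuins, Sirt5, which removes succinyl and other acyl groups in mitochondria, had 10.7, 9.42 and 8.12 CPM with and 12.6, 12.6 and 10.035 CPM without added palmitate (edgeR unadjusted p = 0.0501). In the 5 lists of other complex genes, 0 of the 126 tested genes differed with palmitate in edgeR's test and 14 had an unadjusted p under 0.05, or 11.1%, against 2.19% and 17.3% of all genes, while DESeq2 gave 1 on all 9 libraries (Arid4a) and 0 on the 2 groups compared.

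The precision of these comparisons differed between the groups. The median SD of the 37 genes on the log2 scale was 0.083 in 2D, 0.121 in 3D with added palmitate and 0.078 in 3D without it, against 0.087, 0.148 and 0.080 over all genes. In 3D with added palmitate 13 of the 37 genes had a highest library over 1.25 times the lowest, against 4 in 2D and 2 in 3D without it. Hdac10 was the extreme in that group, at 13.2, 9.57 and 8.42 CPM. Exons of 12 genes overlap another gene on the opposite strand, including Kat5 with Rnaseh2c over 426 bases, Sirt3 with Ric8a and Psmd13 over 418 and 342 bases and Tada2b with Grpel1 over 411 bases. The library kit keeps the strand, but the strand setting of the counting was not given in the sources used here, so reads from these stretches may be missing or shared.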

How the data were processed

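Poly(A) RNA of 9 libraries of 4T1 cells (3 conditions, 3 libraries each) was measured. The authors deposited raw counts of reads per gene. By the study's methods and the submitters' processing notes, reads were checked with FastQC 0.11.9, aligned to GRCm38 with HISAT2 2.1.0 and counted with HTSeq. The annotation release and strand setting are not given in the sources used here. Groups and replicate numbers came from the sample labels. Total counts per library were 6595514 to 31177756, so genes with few counts are less precise, above all in the smallest library. No libraries were duplicates (chi-square per gene of pairs within a group, 3.89 to 19.7).

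The test was edgeR 4.0.16 in R 4.3.3 (filterByExpr, TMM, a quasi-likelihood fit of group to all 9 libraries, Benjamini-Hochberg adjustment over 12575 genes, threshold 0.05). Standard errors were derived from F as the absolute log2 fold change over its square root. Exon lengths, GC content and positions came from the GENCODE annotation of GRCm38, with lengths for 24054 of 24421 genes. Alternatives were DESeq2 1.42.0, other scalings and filters, the 2 groups compared alone, a replicate block, the Rn45s share as a covariate, a minimum log2 fold change of 0.5, each library left out in turn, and a GC and length correction (offsets from splines with 4 degrees of freedom fitted in each library). Promoter windows came from RefSeq (GRCm38.p6), and motifs were counted on both strands of 250 bases. On simulated counts for 3D against 2D (12407 genes), edgeR recovered 95 of 100 genes changed by 0.5 on the log2 scale. It recovered 100 of 100 changed by 1, with 7 false calls. For palmitate (12436 genes) it recovered 91 and 100 of 100, with 4 false calls. The simulation gave each gene the same spread in all groups and changed few genes. It therefore does not give the power or the error rate for the real libraries.

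The members, lists and tests were chosen with earlier results of these data known. Full values are given for up to 3 higher and 3 lower genes of each role with the smallest p, both readers, Kat2a, and acetyltransferases with an unadjusted p under 0.05 with palmitate, and other genes where a result turns on them. Up to 2 higher and 2 lower genes are named per list of other complex genes.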

Additional observations from a re-analysis of the deposited data

How the results depend on the processing

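Between 3D and 2D culture 25 of the 37 genes differed, and this number stayed between 22 and 25 under the other scalings, filters and tests (22 with DESeq2 on the 2 groups, where Kat7, Kat8 and Hdac8 were lost) and from 23 to 26 in fits without 1 library, except that a minimum log2 fold change of 0.5 left 13. With palmitate 0 became 1 without a filter on low counts (Kat6a), 2 after GC and length correction, and 0 to 4 in fits without 1 library, where the 4 came without replicate 3 of 3D with added palmitate. Signs turned for genes near 0 and for Crebbp. After GC and length correction, Crebbp was -0.083, Ncoa3 -0.36 and Sirt5 0.017, and with DESeq2 on the 2 groups Tada2b was 0.0059. In fits without 1 library Tada2b lay from -0.11 to 0.045, Sirt5 from -0.17 to 0.022, Hdac10 from -0.10 to 0.26 and Ncoa3 from -0.0028 to 0.12. The causes were not tested.

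Same-numbered libraries did not deviate together (the correlations of 9 pairs ran from -0.24 to 0.15 with a median of -0.051, and those of 18 pairs with unlike numbers from -0.17 to 0.28), and the numbers were not taken as pairs. With a replicate block, 24 of the 37 genes differed between 3D and 2D (Hdac8 was lost) and 0 with palmitate. Over all genes, the count with palmitate was 275 and became 617 without a filter (325 higher, 292 lower), 77 with only the 2 groups compared, 111 with the replicate block, 182 with DESeq2 on the 2 groups, 44 with the Rn45s share as a covariate, 933 after GC and length correction and 71 to 1901 without 1 library. With library size scaling it was 106 higher and 121 lower, against 173 and 102.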
